A study of Homo sapiens with 12 samples.

Results

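The unfolded protein and amino acid stress genes are 35 genes that cells use when folding in the endoplasmic reticulum (ER) is overloaded or amino acids run short. They were taken as a fixed list of symbols, and each was read by the probe set (a group of short array probes combined into 1 level) that the array annotation gives to that symbol alone and that had the highest mean over the 12 arrays. Of the 35 genes, 34 had such a probe set and 1, the ER ubiquitin ligase gene SYVN1, had none and has no value here. All 34 reached the signal limit for testing (log2 5 or more, on 3 arrays or more), and they stand among 14080 tested genes of 19775 genes measured.

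The cells were U937, an established human myeloid leukaemia line with monocytic features, transduced with an empty vector or with a vector for EVI1, a zinc finger transcription factor that acts as an oncogene in myeloid leukaemia. Cells growing in logarithmic phase received 1 µM all-trans retinoic acid (ATRA), the natural ligand of retinoic acid receptors, or the solvent DMSO for 24 h. This gave 4 groups of 3 biological replicates, named here by line and agent: vector cells with DMSO or ATRA, and EVI1 cells with DMSO or ATRA. All groups share the U937 background, transduction and culture medium. The sources used here do not say which promoter drives EVI1 or whether each line is a clone or a pool, and 1 vector line stands for control cells in general. An effect of EVI1 therefore cannot be told apart from another difference between the lines.

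Unfolded proteins in the ER are sensed by the kinases IRE1 and PERK and by the membrane-bound factor ATF6. IRE1 splices the transcript of XBP1, and XBP1 and ATF6 then turn on genes for chaperones, disulfide isomerases and ER-associated degradation, which returns misfolded proteins to the cytosol. PERK, and the kinase GCN2 when amino acids are scarce, phosphorylate the initiation factor eIF2, which lowers general translation and lets the transcription factor ATF4 be made. ATF4 turns on amino acid synthesis, uptake and, with CHOP (encoded by DDIT3), genes linked to cell death. Much of this control acts on splicing and translation, which these arrays do not read.

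Arrays of the same group correlated over the tested genes with r from 0.978 to 0.994. The myeloid markers LYZ (12.35 to 13.65), PTPRC (10.03 to 11.62) and ITGB2 (11.08 to 12.54) were high on the log2 scale on all 12 arrays, while SPI1 read 6.07 to 7.11, CSF1R 5.59 to 6.79 (a rise of 0.62 with ATRA in EVI1 cells), MPO 4.80 to 5.97 and FCGR1A 3.21 to 3.80, and CD33 and CD68 had no probe set of their own. Of the lists for other cell types, the mean level on an array was 5.39 to 5.92 for 3 erythroid markers, 5.49 to 5.89 for 4 T and NK markers, 5.58 to 6.32 for 3 B cell markers, 4.21 to 4.62 for 3 epithelial markers and 6.37 to 6.84 for 4 fibroblast and endothelial markers, against array medians of 5.29 to 5.35. Within these lists EPCAM (2.78 to 3.37), CDH5 (3.08 to 3.55), MS4A1 (3.87 to 4.77) and CD2 (4.01 to 4.81) stayed below the signal limit, whereas PECAM1 read 10.4 to 12.38, PAX5 5.74 to 7.99, NKG7 7.18 to 8.33 and COL1A1 7.01 to 7.98. MECOM, the gene that encodes EVI1, read 3.12 to 3.48 in vector DMSO, 2.99 to 3.20 in vector ATRA, 3.04 to 3.53 in EVI1 DMSO and 3.29 to 3.60 in EVI1 ATRA, below the lower quartile of every array (3.83 to 3.91), and it therefore gives no check of which cells carried EVI1. Of 19 markers listed for other cell types 11 were tested, and the 1 called without the block was PECAM1, an adhesion molecule of endothelial and also of myeloid cells, which rose by 1.10 with ATRA in EVI1 cells and was 1.00 higher in EVI1 than in vector cells under ATRA. The mean level of its list on an array was 6.37 to 6.66 in vector DMSO, 6.53 to 6.64 in vector ATRA, 6.47 to 6.66 in EVI1 DMSO and 6.66 to 6.84 in EVI1 ATRA, with the endothelial CDH5 below the lower quartile throughout. With the block 1 of the 11 rose and 2 fell with ATRA in EVI1 cells (against 16.3% and 19.4% of all genes). In vector cells 1 rose with ATRA (against 9.96%). In EVI1 against vector cells 2 were higher under DMSO (against 4.20%). Under ATRA 3 were higher and 1 was lower (against 13.0% and 12.3%). The part of these markers in the results was not tested.

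Arrays with the same replicate number deviated together from their group means, so a second fit with the replicate number as a block is given beside the first wherever it changes a call. A gene is called, and described as risen or fallen, at an adjusted p under 0.05 over all 14080 genes in limma. Differences are on the log2 scale with the standard error (SE) of the fit without the block, and group means carry the standard deviation (SD) of 3 arrays. The comparisons share arrays, for example EVI1 ATRA enters both the ATRA and the EVI1 comparison, so their values are given side by side and are not independent of each other.

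Most of the genes called with ATRA fell, and the largest fall was in PSAT1, an enzyme of serine synthesis. In EVI1 cells 7 of 34 genes were called without the block (20.6%, against 15.1% of all tested genes). The enzymes PSAT1, MTHFD2 and SHMT2, the transcription factors ATF4 and XBP1 and the ER protein MANF fell, which is 6 of 34 (17.6%, against 7.66% of all genes), and SEL1L rose, which is 1 of 34 (2.94%, against 7.45%). With the block 19 were called (55.9%, against 35.7% of all genes): 14 fell (41.2%, against 19.4%) and 5 rose (14.7%, against 16.3%). In vector cells limma called 0 of 34 without the block (3.52% of all genes, 2.00% higher and 1.52% lower). At an unadjusted p under 0.05 there were 12 of 34 members, against 17.4% of all genes. With each array centred on its median, 0 were called higher and 1 lower (against 1.33% and 2.20% of all genes). In the blocked fit 12 were called (35.3%, against 20.0% of all genes), and all 12 fell (against 10.1% of all genes), while 0 rose (against 9.96%). The median difference of the 34 was -0.20 in vector and -0.14 in EVI1 cells, against 0.00 and -0.02 over all tested genes.

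The counts for ATRA in EVI1 cells rest on few arrays. In these fits without 1 array, 2.99% to 12.7% of all genes were called lower and 3.38% to 10.1% higher. The 6 falls without the block became 3 without EVI1 DMSO replicate 1, 1 without EVI1 DMSO replicate 2, 2 without EVI1 ATRA replicate 2 and 2 without EVI1 ATRA replicate 3, 3 without vector DMSO replicate 2 or vector ATRA replicate 2, and 10 without EVI1 ATRA replicate 1 (12.7% of all genes lower in that fit). SEL1L was no longer called without any 1 of EVI1 DMSO replicates 1, 2 and 3 or EVI1 ATRA replicates 2 and 3, and without EVI1 ATRA replicate 1 a total of 4 genes rose (against 10.1% of all genes). With the block and without the 4 arrays of number 3, 12 genes fell (against 12.5% of all genes) and 1 rose (against 11.3%) in EVI1 cells, and 3 fell in vector cells (against 5.33%). SEL1L and XBP1 lost their calls in that fit.

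**Figure D1:**
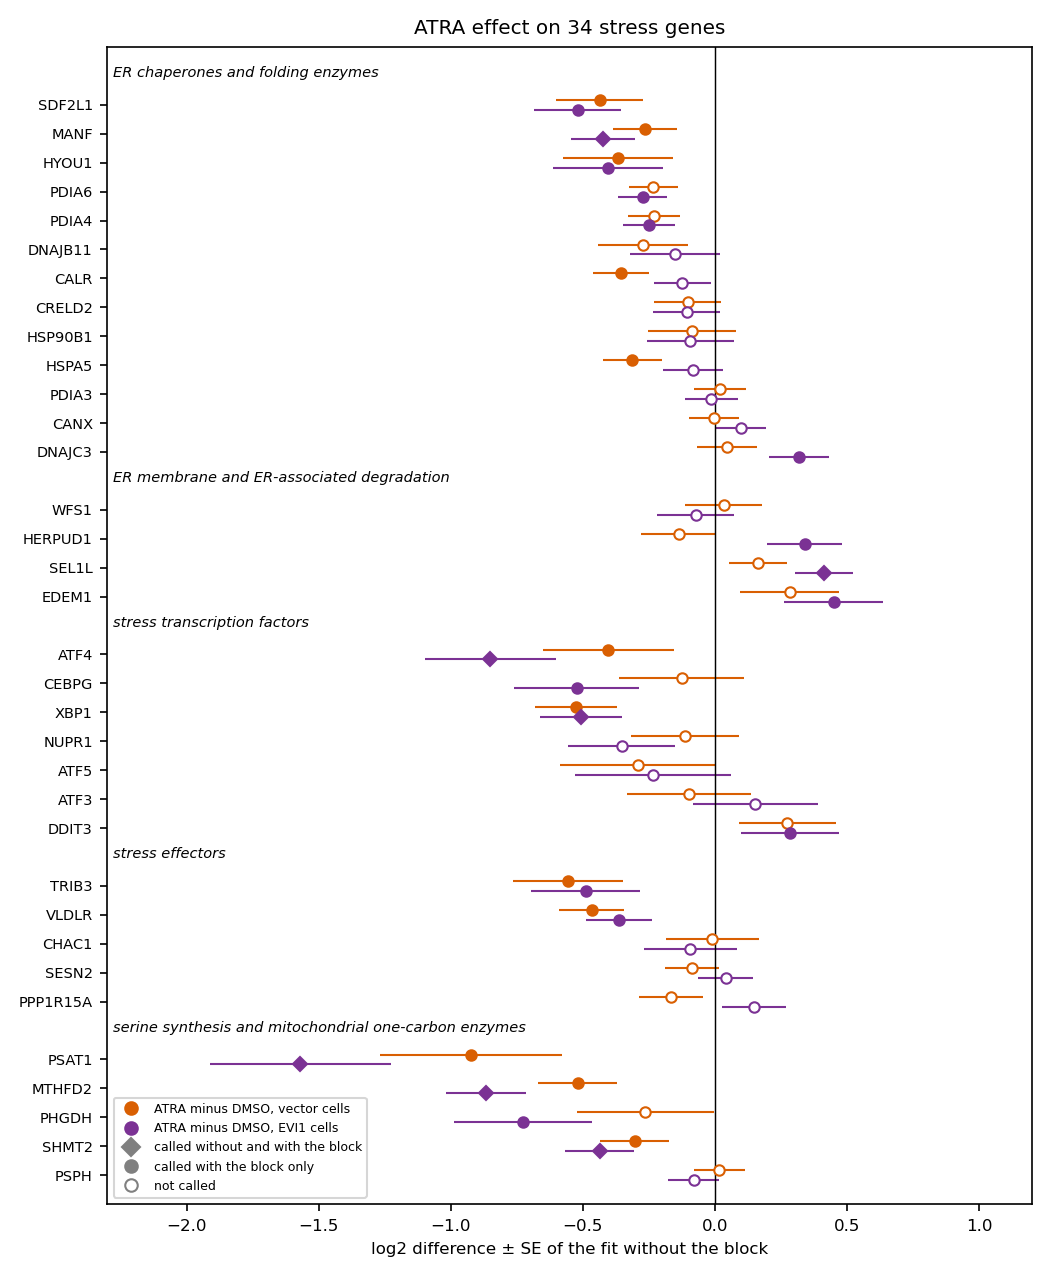
ATRA minus DMSO differences on the log2 scale (x axis) of the 34 measured genes, by role, in vector cells (orange) and EVI1 cells (purple), with bars for the SE of the fit without the block. Diamonds mark genes called without and with the block, filled circles genes called with the block only and open circles genes not called. PSAT1 lies farthest left in each cell type (-0.92 and -1.57), and SEL1L and EDEM1 lie to the right.

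Among the transcription factors, ATF4 fell with ATRA in EVI1 cells. ATF4, the activator of amino acid synthesis genes, read 12.44, 12.14 and 11.94 in vector DMSO, 12.12, 11.77 and 11.42 in vector ATRA, 12.41, 12.16 and 11.77 in EVI1 DMSO, and 11.75, 11.16 and 10.88 in EVI1 ATRA. The EVI1 ATRA arrays lay below all EVI1 DMSO arrays, whereas the vector groups overlapped. At each replicate number the ATRA array was lower, with paired differences of -0.66, -1.0 and -0.89 in EVI1 cells and -0.32, -0.37 and -0.52 in vector cells. The difference was -0.85 ± 0.25 (SE, n = 3) in EVI1 cells (adjusted p = 0.0378, blocked 8.23e-05) and -0.40 ± 0.25 in vector cells (0.452, blocked 0.00854). The call in EVI1 cells was lost without any 1 of 6 arrays: EVI1 DMSO replicates 1 and 2, EVI1 ATRA replicates 2 and 3, vector DMSO replicate 2 and vector ATRA replicate 2, with adjusted p up to 0.165.

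XBP1, the factor activated by IRE1, fell with ATRA in EVI1 cells, and in vector cells with the block. It read 9.82, 9.86 and 9.78 in vector DMSO and 9.47, 9.42 and 8.99 in vector ATRA, and 9.96, 10.23 and 10.13 in EVI1 DMSO and 9.76, 9.75 and 9.29 in EVI1 ATRA. The ATRA arrays lay below the DMSO arrays in each cell type, and the arrays of number 3 were the lowest of each ATRA group. The difference was -0.51 ± 0.16 in EVI1 cells (adjusted p = 0.0475, blocked 0.00771) and -0.53 ± 0.16 in vector cells (0.0939, blocked 0.0132). The call in EVI1 cells is marginal: it was lost without any 1 of 9 of the 12 arrays, namely all but EVI1 ATRA replicate 1, vector ATRA replicate 1 and vector ATRA replicate 3, with adjusted p up to 0.2. A second XBP1 probe set with a mean of 4.78, near background, differed by 0.12 in EVI1 cells, and no value here is taken as a measure of spliced XBP1.

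The remaining transcription factors did not follow one direction. CEBPG, a bZIP partner of ATF4, had a mean of 9.74 ± 0.25 (SD, n = 3) in EVI1 DMSO and 9.22 ± 0.46 in EVI1 ATRA, a difference of -0.52 ± 0.24 (SE; adjusted p = 0.166, blocked 0.00169), against -0.13 ± 0.24 in vector cells (0.863, blocked 0.389). DDIT3, which encodes CHOP, differed upward, with 8.43, 8.19 and 8.65 in EVI1 DMSO and 8.87, 8.41 and 8.84 in EVI1 ATRA, and 8.39, 7.78 and 8.28 in vector DMSO and 8.59, 8.29 and 8.39 in vector ATRA. Its difference was 0.28 ± 0.18 in EVI1 cells (0.358, blocked 0.0455) and 0.27 ± 0.18 in vector cells (0.505, blocked 0.0779), so it rose only in the blocked fit of EVI1 cells, with groups that overlap. ATF3, a stress-induced repressor, ATF5, a relative of ATF4, and NUPR1, a small stress-induced chromatin protein, had ATRA differences between -0.35 and 0.15 and were called in neither cell type with or without the block. The 3 further ATF5 probe sets had ATRA differences from -0.13 to 0.12, against -0.29 and -0.23 for the one used.

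Of the 5 serine and one-carbon enzymes, 3 fell with ATRA in EVI1 cells without the block (against 7.66% of all genes) and 4 with it (against 19.4%), with a median of -0.73. Serine is made from a glycolytic intermediate by PHGDH, PSAT1 and PSPH, and SHMT2 and MTHFD2 carry its one-carbon unit through mitochondria. PSAT1, the phosphoserine aminotransferase, read 11.51, 11.37 and 11.05 in vector DMSO, 10.65, 10.49 and 10.02 in vector ATRA, 11.30, 11.52 and 10.46 in EVI1 DMSO, and 10.14, 9.70 and 8.73 in EVI1 ATRA. The groups did not overlap between DMSO and ATRA in either cell type, and the lowest array of all was EVI1 ATRA replicate 3. The difference was -1.57 ± 0.34 (SE, n = 3) in EVI1 cells, which is 2.97-fold lower (adjusted p = 0.0114, blocked 0.000111), and -0.92 ± 0.34 in vector cells, which is 1.90-fold lower (0.18, blocked 0.00442). The unblocked call was lost without EVI1 DMSO replicate 2 (adjusted p = 0.0514). A second PSAT1 probe set differed by -1.39 in EVI1 and -0.90 in vector cells.

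MTHFD2, the mitochondrial methylenetetrahydrofolate dehydrogenase, kept its call in EVI1 cells without any 1 array. It read 12.03, 12.25 and 11.85 in EVI1 DMSO and 11.50, 11.14 and 10.89 in EVI1 ATRA, and 12.18, 12.20 and 12.01 in vector DMSO and 11.58, 11.59 and 11.66 in vector ATRA. All ATRA arrays lay below all DMSO arrays of the same cell type, and the 3 vector ATRA arrays lay within 0.08 of each other. The difference was -0.87 ± 0.15 in EVI1 cells, 1.82-fold lower (adjusted p = 0.00388, blocked 0.000468), and -0.52 ± 0.15 in vector cells (0.0873, blocked 0.0157). The other MTHFD2 probe set differed by -0.94 and -0.48.

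SHMT2, the mitochondrial serine hydroxymethyltransferase, read 12.06, 12.05 and 11.74 in EVI1 DMSO and 11.59, 11.59 and 11.36 in EVI1 ATRA, and 11.96, 12.03 and 11.78 in vector DMSO and 11.73, 11.71 and 11.42 in vector ATRA. The ATRA arrays lay below the DMSO arrays in each cell type. The difference was -0.44 ± 0.13 in EVI1 cells (adjusted p = 0.0424, blocked 0.000524) and -0.30 ± 0.13 in vector cells (0.252, blocked 0.00893). The call in EVI1 cells was lost without any 1 of 7 arrays (vector DMSO replicates 1 and 2, EVI1 DMSO replicates 1 and 2, vector ATRA replicate 2, EVI1 ATRA replicates 2 and 3), with adjusted p up to 0.172. The other SHMT2 probe sets differed by -0.45 and -0.56 in EVI1 cells.

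PHGDH, the first enzyme of serine synthesis, read 10.17, 10.21 and 9.63 in EVI1 DMSO and 9.67, 9.53 and 8.63 in EVI1 ATRA, with overlapping groups and the array of number 3 lowest in each. Its difference was -0.73 ± 0.26 in EVI1 cells (adjusted p = 0.0825, blocked 0.00208) and -0.26 ± 0.26 in vector cells (0.689, blocked 0.206). PSPH, which completes serine synthesis, differed by -0.08 ± 0.10 in EVI1 and 0.02 ± 0.10 in vector cells and was called with ATRA in neither fit. Another PSPH probe set differed by -0.35 and -0.33, so the PSPH probe sets disagree.

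**Figure D2:**
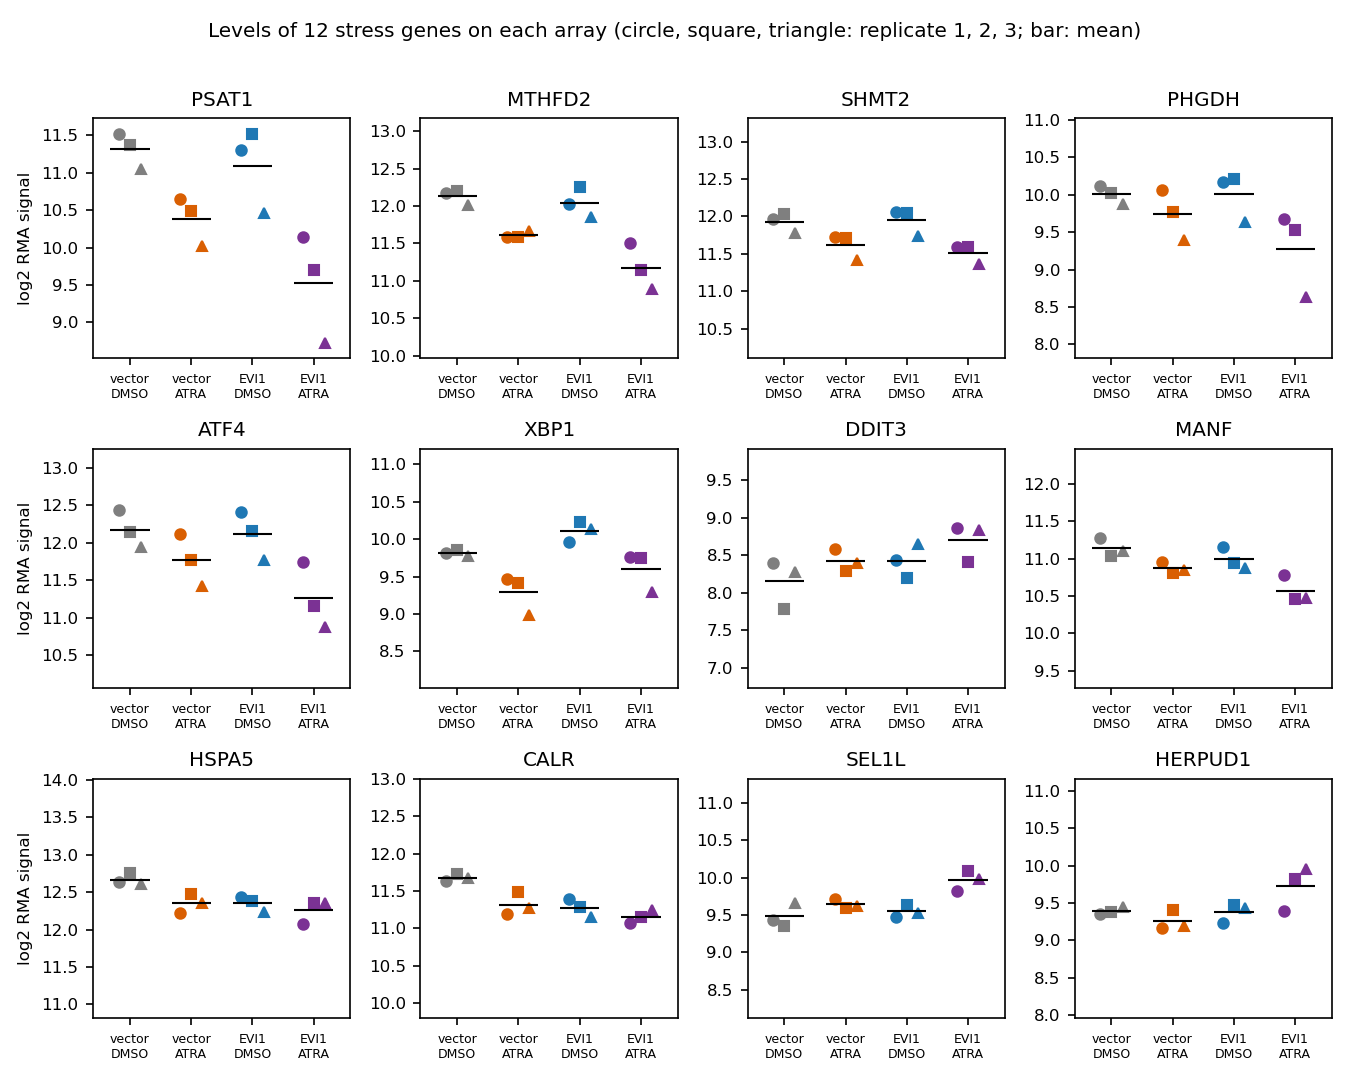
Deposited log2 signal (y axis, the same span of 3.2 log2 units in every panel) of 12 stress genes on each of the 12 arrays by group, with circles, squares and triangles for replicates 1, 2 and 3 and bars for group means. PSAT1 falls from 11.31 to 10.39 in vector and from 11.09 to 9.52 in EVI1 cells as group means, while SEL1L and HERPUD1 have their highest means, 9.96 and 9.72, in EVI1 ATRA.

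Of the 5 stress effectors, TRIB3 and VLDLR fell with ATRA in each cell type in the blocked fit only. In that fit 10.1% of all genes fell in vector cells and 19.4% in EVI1 cells. TRIB3, a pseudokinase induced by ATF4 and CHOP, read 9.89, 10.14 and 9.63 in vector DMSO and 9.29, 9.62 and 9.08 in vector ATRA, and 9.62, 10.02 and 9.36 in EVI1 DMSO and 9.05, 9.50 and 8.98 in EVI1 ATRA. The array of number 2 was the highest in all 4 groups, and the vector groups did not overlap. The difference was -0.56 ± 0.21 in vector cells (adjusted p = 0.18, blocked 0.000763) and -0.49 ± 0.21 in EVI1 cells (0.14, blocked 0.000476). VLDLR, a lipoprotein receptor, differed by -0.47 ± 0.12 in vector cells (0.0637, blocked 0.00955) and -0.36 ± 0.12 in EVI1 cells (0.0688, blocked 0.0159). CHAC1, which degrades glutathione, SESN2, a leucine sensor that restrains mTORC1, and PPP1R15A, the stress-induced phosphatase subunit that removes phosphate from eIF2, differed with ATRA by -0.17 to 0.15 and were not called in either cell type. CHAC1 read 5.29 to 5.96 on all arrays, close to the signal limit, where differences are compressed.

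The 13 ER chaperones and folding enzymes had small differences, 11 of 13 negative in each cell type, with medians of -0.23 in vector and -0.12 in EVI1 cells. Their promoters are shown because 7 of the 31 listed genes with a RefSeq promoter window (GRCh38.p14, 250 bases before to 50 after the start) hold the ER stress response element, the classical site of ATF6 and NF-Y, written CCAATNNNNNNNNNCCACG and searched on both strands. It stood in 22.6% of those 31 genes and in 0.0916% of all 27305 genes with a window. The 8 distinct matches lie in 5 chaperone and isomerase genes, in CRELD2 and in XBP1. They are written 5′ to 3′ on the strand of the match, with the fixed letters in capitals. Before each stand its position and its distance in bases from the gene's RefSeq start, which lies inside the window. CANX has several starts in the table. Its 1 site lies at -9 to 10, at -151 to -133 or at -189 to -171 of them, and the second is printed. PDIA6 and XBP1 also have another start, whose window holds no match.
HSPA5, chr9:125241391-125241409, -66 to -48: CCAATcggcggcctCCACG
HSP90B1, chr12:103930216-103930234, -194 to -176: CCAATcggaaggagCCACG
HSP90B1, chr12:103930321-103930339, -89 to -71: CCAATcgcgccgcaCCACG
CALR, chr19:12938384-12938402, -225 to -207: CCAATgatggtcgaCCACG
CANX, chr5:179698778-179698796, -151 to -133: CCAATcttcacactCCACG
PDIA6, chr2:10812853-10812871, -86 to -68: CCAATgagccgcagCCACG
CRELD2, chr22:49918554-49918572, -80 to -62: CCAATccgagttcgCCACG
XBP1, chr22:28800603-28800621, -52 to -34: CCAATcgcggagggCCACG
The matches in CALR and CRELD2 and the second in HSP90B1 are on the strand opposite to the gene. PDIA3, PSPH, SHMT2 and NUPR1 have no window in the table.

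The members with this element did not share one response to ATRA. XBP1 fell in EVI1 cells and, with the block, in vector cells, HSPA5 and CALR fell with the block in vector cells, PDIA6 fell with the block in EVI1 cells, and HSP90B1, CANX and CRELD2 were called with ATRA in neither cell type and neither fit. The 250 bases before the start of HSPA5 (chr9:125241344-125241593, minus strand) and of XBP1 (chr22:28800570-28800819, minus strand) are given with the element in capitals. They are printed because HSPA5 is the reference target of this element and XBP1 is the member with it that fell most.
HSPA5: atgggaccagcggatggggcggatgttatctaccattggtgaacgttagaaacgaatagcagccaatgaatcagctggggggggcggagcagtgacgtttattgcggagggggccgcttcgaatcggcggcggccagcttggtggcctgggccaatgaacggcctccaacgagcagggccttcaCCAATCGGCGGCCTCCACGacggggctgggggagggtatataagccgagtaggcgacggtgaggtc
XBP1: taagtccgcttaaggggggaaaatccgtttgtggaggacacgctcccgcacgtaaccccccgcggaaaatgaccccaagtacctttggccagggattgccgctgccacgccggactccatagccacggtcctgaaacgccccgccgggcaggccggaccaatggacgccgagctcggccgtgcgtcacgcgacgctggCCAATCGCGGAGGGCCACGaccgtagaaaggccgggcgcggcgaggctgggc

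HSPA5, which encodes the master ER chaperone BiP, read 12.64, 12.75 and 12.61 in vector DMSO, 12.22, 12.48 and 12.36 in vector ATRA, 12.43, 12.38 and 12.24 in EVI1 DMSO, and 12.08, 12.36 and 12.36 in EVI1 ATRA. The vector DMSO arrays were the 3 highest of the 12, and the EVI1 groups overlapped. The ATRA difference was -0.31 ± 0.11 in vector cells (adjusted p = 0.164, blocked 0.0347) and -0.08 ± 0.11 in EVI1 cells (0.718, blocked 0.533). CALR, the calcium-binding chaperone calreticulin, had the same shape, with 11.63, 11.73 and 11.67 in vector DMSO, 11.20, 11.49 and 11.27 in vector ATRA, 11.39, 11.29 and 11.16 in EVI1 DMSO, and 11.07, 11.15 and 11.25 in EVI1 ATRA. Its ATRA difference was -0.36 ± 0.11 in vector cells (0.0975, blocked 0.022) and -0.12 ± 0.11 in EVI1 cells (0.516, blocked 0.347). A further HSPA5 probe set (mean 8.64) differed with ATRA by -0.25 in vector and -0.09 in EVI1 cells, but its vector DMSO arrays were not the 3 highest. The differences between these ATRA effects were not called (interaction 0.23 ± 0.16 for HSPA5 and 0.23 ± 0.15 for CALR; adjusted p = 0.998 each, blocked 0.45 and 0.451).

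MANF, a secreted ER protein that protects stressed cells, fell in EVI1 cells in each fit. It read 11.16, 10.94 and 10.88 in EVI1 DMSO and 10.78, 10.46 and 10.47 in EVI1 ATRA, and 11.28, 11.04 and 11.10 in vector DMSO and 10.96, 10.81 and 10.85 in vector ATRA. The ATRA arrays lay below the DMSO arrays in each cell type. The difference was -0.42 ± 0.12 in EVI1 cells (adjusted p = 0.0359, blocked 0.000904) and -0.27 ± 0.12 in vector cells (0.28, blocked 0.0213). The unblocked call was lost without any 1 of EVI1 DMSO replicates 1 and 2, EVI1 ATRA replicates 2 and 3 and vector ATRA replicate 3, with adjusted p up to 0.142. SDF2L1, part of an ER chaperone complex, differed by -0.52 ± 0.17 in EVI1 cells (0.0545, blocked 0.000792) and -0.44 ± 0.17 in vector cells (0.188, blocked 0.00507).

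HYOU1, a large ER chaperone that serves as exchange factor for BiP, differed by -0.41 ± 0.21 in EVI1 cells (adjusted p = 0.226, blocked 0.00247) and -0.37 ± 0.21 in vector cells (0.408, blocked 0.00955), with its array of number 1 the highest in all 4 groups. The isomerases PDIA6 (-0.27 ± 0.09; 0.0685, blocked 0.0185) and PDIA4 (-0.25 ± 0.10; 0.109, blocked 0.0355) fell with the block in EVI1 cells, and in vector cells they differed by -0.23 each (blocked 0.0578 and 0.0743). The other 3 PDIA6 probe sets differed by -0.28 to -0.31 in EVI1 cells and by only -0.09 to -0.12 in vector cells. DNAJC3, a co-chaperone of BiP also known as p58IPK, was the 1 chaperone gene that rose, with 10.12, 10.21 and 10.07 in EVI1 DMSO and 10.25, 10.46 and 10.64 in EVI1 ATRA, groups that do not overlap, and a difference of 0.32 ± 0.11 (0.0814, blocked 0.0204), against 0.05 ± 0.11 in vector cells. PDIA3, CANX, HSP90B1, CRELD2 and the BiP co-chaperone DNAJB11 had ATRA differences of -0.27 to 0.10 and were called in neither fit. HSP90B1 was read by a probe set whose suffix marks probes that can bind related transcripts, because its other main probe sets also carry the name of a microRNA gene.

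Of the 4 genes of the ER membrane and ER-associated degradation, SEL1L rose with ATRA in EVI1 cells without the block (against 7.45% of all genes). With the block SEL1L, EDEM1 and HERPUD1 rose (against 16.3%). SEL1L, the adaptor of the ubiquitin ligase that clears misfolded ER proteins, read 9.44, 9.35 and 9.66 in vector DMSO, 9.72, 9.60 and 9.62 in vector ATRA, 9.48, 9.64 and 9.53 in EVI1 DMSO, and 9.82, 10.09 and 9.98 in EVI1 ATRA. The EVI1 ATRA arrays were the 3 highest of the 12. The difference was 0.41 ± 0.11 in EVI1 cells (adjusted p = 0.027, blocked 0.008) and 0.16 ± 0.11 in vector cells (0.507, blocked 0.287). The other SEL1L probe sets differed by 0.31, 0.26 and 0.17 in EVI1 cells, the last from a probe set with a mean of 4.71 and thus near background.

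EDEM1, a lectin that routes misfolded glycoproteins to degradation, read 9.44, 9.86 and 9.94 in EVI1 DMSO and 9.85, 10.45 and 10.29 in EVI1 ATRA. Its groups overlapped, the array of number 1 was the lowest in all 4 groups, and at each number the ATRA array was higher, by 0.41, 0.59 and 0.35. The difference was 0.45 ± 0.19 in EVI1 cells (adjusted p = 0.132, blocked 0.00615) and 0.28 ± 0.19 in vector cells (0.495, blocked 0.0782). HERPUD1, an ER membrane protein that organises the degradation complex, read 9.24, 9.48 and 9.43 in EVI1 DMSO and 9.39, 9.82 and 9.96 in EVI1 ATRA, and 9.35, 9.38 and 9.45 in vector DMSO and 9.16, 9.41 and 9.20 in vector ATRA. It differed by 0.34 ± 0.14 in EVI1 cells (0.133, blocked 0.025) and -0.14 ± 0.14 in vector cells (0.707, blocked 0.398). A second HERPUD1 probe set with a mean of 4.99, near background, differed by -0.11 in EVI1 cells. WFS1, the ER membrane protein wolframin, read 5.0 to 5.62 on all arrays, near the signal limit, and was called in no comparison.

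The promoter of HERPUD1 holds the other element searched, the CEBP-ATF composite element bound by ATF4 with a CEBP partner, written TGATGNAA. It was found in the windows of ATF3, CEBPG, CHAC1 and HERPUD1, 4 of 31 genes (12.9%), against 4.46% of all genes with a window. PSAT1, MTHFD2, PHGDH, ATF4 and TRIB3 held no match in these windows, which says only that these letters are not there. The 250 bases before the start of HERPUD1 (chr16:56931892-56932141, plus strand) are shown because HERPUD1, higher with ATRA in EVI1 cells in the blocked fit, had the largest interaction above 0, with the match (opposite strand, -176 to -169) in capitals.
HERPUD1: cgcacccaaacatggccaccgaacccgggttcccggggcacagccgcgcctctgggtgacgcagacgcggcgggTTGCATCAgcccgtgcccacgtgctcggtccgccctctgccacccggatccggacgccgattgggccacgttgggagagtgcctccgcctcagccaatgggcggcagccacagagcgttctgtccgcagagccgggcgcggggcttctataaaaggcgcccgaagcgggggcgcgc

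No listed gene was called for a difference between the ATRA effects. In the interaction, the ATRA effect in EVI1 cells minus that in vector cells, limma called 0 of 34 with and without the block and 0 of 14080 over all genes, which is 0%. At an unadjusted p under 0.05 there was 1 member without the block (362 of all genes, 2.57%) and 5 with it (1846 of all genes, 13.1%). HERPUD1, the 1 member in each, had 0.48 ± 0.20 (adjusted p = 0.998, blocked 0.346). The 4 others in the blocked fit were ATF4, PSAT1, CEBPG and PHGDH. By replicate number the difference was -0.34, -0.63 and -0.37 for ATF4 (blocked SE 0.12, adjusted p = 0.346) and -0.30, -0.94 and -0.70 for PSAT1 (blocked SE 0.24, adjusted p = 0.346). ATF4 and PSAT1 passed the unadjusted limit, so the shared sign of their values is no separate evidence. MTHFD2, which did not pass it, had 0.07, -0.50 and -0.61 (blocked SE 0.17, adjusted p = 0.416). All 5 serine and one-carbon enzymes had a negative interaction, from -0.65 ± 0.49 for PSAT1 and -0.35 ± 0.21 for MTHFD2 to -0.10 ± 0.14 for PSPH. Over all tested genes the interaction was negative for 54.7%, and none of the 5 was called. ATF4 had -0.45 ± 0.35, XBP1 0.02 ± 0.22 and TRIB3 0.07 ± 0.29. After adjustment over all genes, the larger falls of PSAT1, MTHFD2 and ATF4 in EVI1 cells were not called as different from those in vector cells in either fit.

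Between EVI1 and vector cells under DMSO, 0 of 34 genes were called without the block (1.21% of all genes, 0.533% higher and 0.682% lower). At an unadjusted p under 0.05 there were 4 members, against 9.79% of all genes. With the block 4 were called (11.8%, against 7.19%), 1 higher (against 4.20% of all genes) and 3 lower (against 2.99%). NUPR1 was higher, with 6.17, 6.16 and 5.90 in vector DMSO and 6.93, 6.96 and 6.23 in EVI1 DMSO, groups that do not overlap but with the EVI1 array of number 3 close to the vector arrays. Its difference was 0.63 ± 0.20 (adjusted p = 0.216, blocked 0.021). CALR (-0.40 ± 0.11; 0.116, blocked 0.0271), PDIA4 (-0.31 ± 0.10; 0.192, blocked 0.0446) and HYOU1 (-0.34 ± 0.21; 0.703, blocked 0.0252) were lower. By the probe sets used, the 13 chaperone and folding genes all differed below 0 (median -0.15, against 0.02 over all tested genes). A further HSPA5 probe set (mean 8.64) differed by 0.06, and further CANX probe sets (means 9.37 and 9.16) by 0.20 and 0.09. Every other further probe set of these genes was below 0. Without the 4 arrays of number 3 the blocked fit called 0 lower (against 1.16% of all genes) and 1 higher (against 1.42%).

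Under ATRA, EVI1 against vector gave 0 of 34 called without the block (5.61% of all genes, 3.28% higher and 2.33% lower). At an unadjusted p under 0.05 there were 12 members, against 21.0% of all genes. With the block 13 were called (38.2%, against 25.3%), 9 lower (against 12.3% of all genes) and 4 higher (against 13.0%). Lower were 4 serine and one-carbon enzymes, PSAT1 (-0.86 ± 0.34; adjusted p = 0.173, blocked 0.00541), PHGDH (-0.47 ± 0.26; 0.343, blocked 0.0294), MTHFD2 (-0.43 ± 0.15; 0.118, blocked 0.0274) and PSPH (-0.23 ± 0.10; 0.189, blocked 0.0372). ATF4 (-0.51 ± 0.25; 0.271, blocked 0.00255), MANF, HYOU1, PDIA4 and CRELD2 (-0.20 to -0.38) were lower as well. Higher were HERPUD1 (0.47 ± 0.14; 0.0791, blocked 0.00923), SEL1L (0.32 ± 0.11; 0.12, blocked 0.0395), PPP1R15A (0.40 ± 0.12; 0.0789, blocked 0.0271) and SESN2 (0.29 ± 0.10; 0.132, blocked 0.0268). PPP1R15A read 6.93, 7.0 and 6.88 in vector ATRA and 7.17, 7.36 and 7.47 in EVI1 ATRA, which do not overlap, and its second probe set differed by 0.48.

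The EVI1 comparison under ATRA depended on single arrays. Without EVI1 ATRA replicate 1 the fit without the block called 3 members higher (against 6.77% of all genes) and 3 lower (against 7.17%), and the blocked fit without the arrays of number 3 called 1 higher (against 3.97%) and 4 lower (against 3.27%). ATF3 showed 1 array apart, with 6.63, 6.66 and 7.61 in EVI1 ATRA against 6.65, 6.19 and 6.37 in vector ATRA (0.56 ± 0.23; adjusted p = 0.193, blocked 0.0797).

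**Figure D3:**
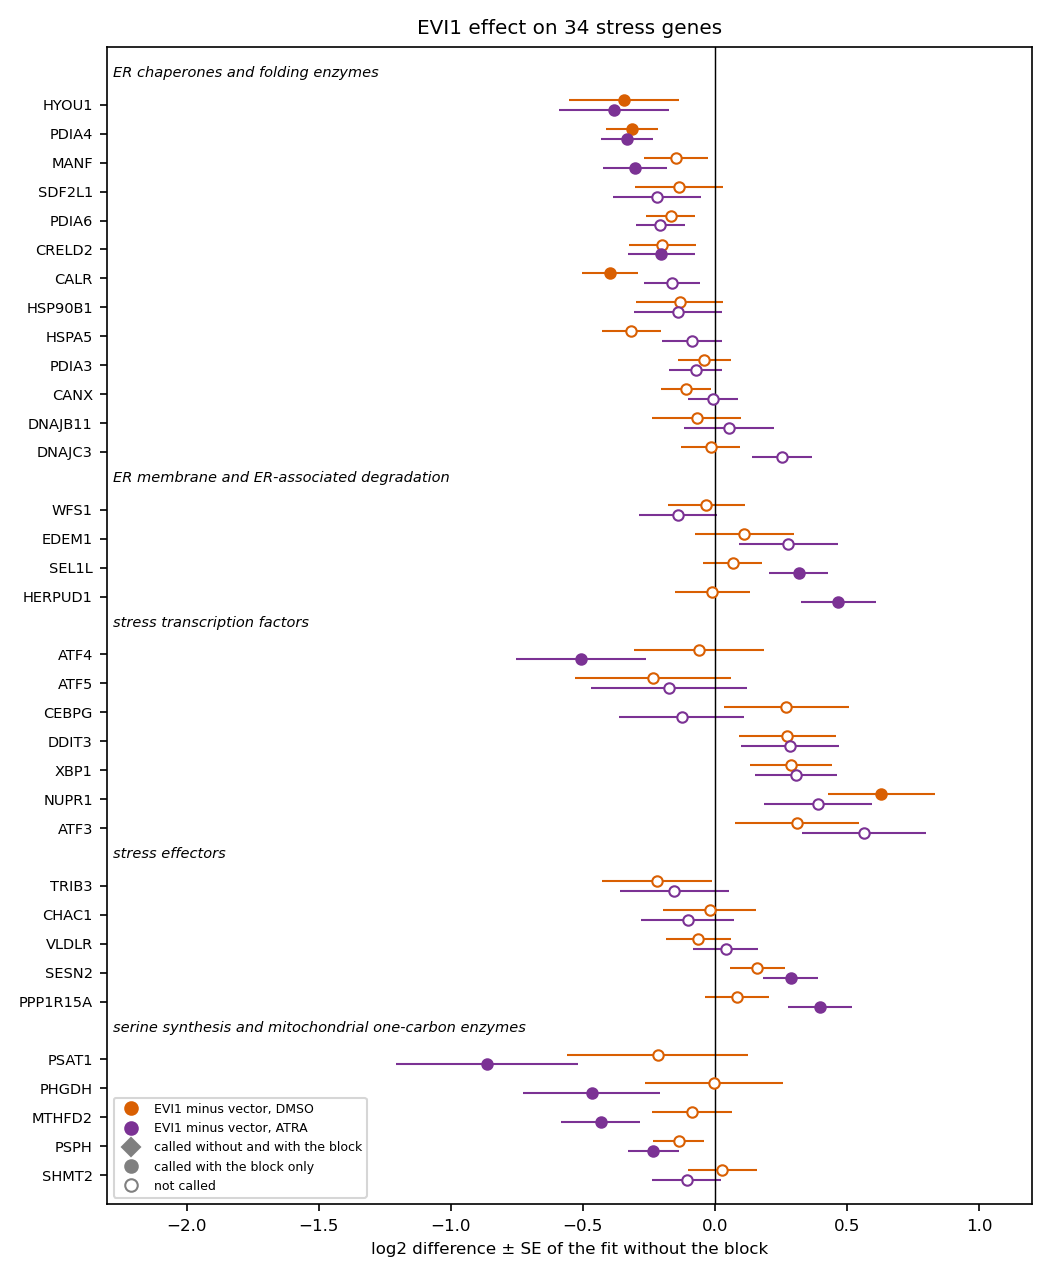
EVI1 minus vector differences on the log2 scale (x axis) of the 34 measured genes by role, under DMSO (orange) and under ATRA (purple), with bars for the SE of the fit without the block. Filled circles mark genes called with the block only and open circles genes not called; no gene was called without the block. NUPR1 lies farthest right under DMSO (0.63) and PSAT1 farthest left under ATRA (-0.86).

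Arrays of one replicate number stood at the same end of all 4 groups for some members. The array of number 1 was the highest in all 4 groups for 8 of 34 members (23.5%, against 21.7% of tested genes): ATF4, ATF5, CEBPG, CRELD2, DNAJB11, HYOU1, MANF and SDF2L1. The array of number 3 was the lowest in all 4 groups for 7 members (20.6%, against 7.60%): ATF4, ATF5, CRELD2, PHGDH, PSAT1, SHMT2 and TRIB3. For ATF4 the numbers stood in the same order in every group, and its highest EVI1 ATRA array (11.75) was close to its lowest EVI1 DMSO array (11.77). What the numbers stand for beyond biological replicates is not given in the sources used here, and its part in the results was not tested other than by the blocked fit.

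Related genes outside the list were taken from 5 further lists, each given beside the share of all tested genes. Of 15 other ATF4-linked genes tested, ATRA in EVI1 cells left 9 lower and 3 higher, which is 80.0% called against 15.1% of all genes, with a median of -0.75. GDF15, a stress cytokine (3.93), DDIT4, an mTORC1 inhibitor (2.31), and CEBPB, a myeloid transcription factor (1.94), rose, and SLC7A5, a large neutral amino acid transporter (-1.71), fell. In vector cells DDIT4 (2.09) and CEBPB (1.55) rose and VEGFA (-0.86) and JDP2 (-0.65) fell, 4 of 15 (26.7%, against 3.52% of all genes). With the block 3 rose and 10 fell in EVI1 cells (against 16.3% and 19.4% of all genes), and 3 rose and 7 fell in vector cells (against 9.96% and 10.1%).

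Of 12 cytosolic aminoacyl-tRNA synthetases, which load amino acids onto tRNAs, 7 fell and 1 rose with ATRA in EVI1 cells (66.7% called, against 15.1% of all genes), with a median of -0.48. WARS1 rose (0.85), and LARS1 (-0.68) and IARS1 (-0.68) were among the falls. In vector cells WARS1 (0.54) rose and GARS1 (-0.48) fell (16.7% called, against 3.52%). With the block 6 fell in vector cells (against 10.1% of all genes) and 9 in EVI1 cells (against 19.4%). Of 5 other one-carbon and folate genes tested, GART (-0.61) and MTHFD1 (-0.51) fell in EVI1 cells (40.0%, against 7.66% of all genes lower). In vector cells 0 were called (against 3.52%), and 1 had an unadjusted p under 0.05 (against 17.4%). With the block 1 fell in vector cells (against 10.1%) and 4 fell in EVI1 cells (against 19.4%). All 5 were negative in each cell type.

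Of 13 stress sensors and eIF2 regulators, CREB3, an ER-anchored transcription factor, rose in EVI1 cells (0.55), which is 7.69% called, against 15.1% of all genes. In vector cells 0 were called (against 3.52%), and 2 had an unadjusted p under 0.05 (against 17.4%). With the block 2 rose and 2 fell in vector cells (15.4% each, against 9.96% and 10.1% of all genes). With the block 4 rose and 2 fell in EVI1 cells (46.2%, against 35.7% of all genes). Of 21 other ER folding, translocation and degradation genes tested, ERO1A, an ER oxidase, fell (-0.49) and ERP44, an ER thioredoxin protein, rose (0.39) in EVI1 cells (9.52% called, against 15.1%). In vector cells 0 were called (against 3.52%), and 7 had an unadjusted p under 0.05 (against 17.4%). With the block 2 rose (9.52%, against 9.96%) and 4 fell (19.0%, against 10.1%) in vector cells. With the block 3 rose and 4 fell in EVI1 cells (33.3%, against 35.7%). DNAJB9, a BiP co-chaperone, was higher in EVI1 cells under DMSO (0.87) and under ATRA (0.89), and ERP44 was higher under ATRA (0.36). EIF4EBP1, a translation repressor (-1.49), LARS1 (-0.55) and GART (-0.43) were lower in EVI1 cells under ATRA. These lists are described by their counts and medians only and were not tested as sets.

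**Figure D4:**
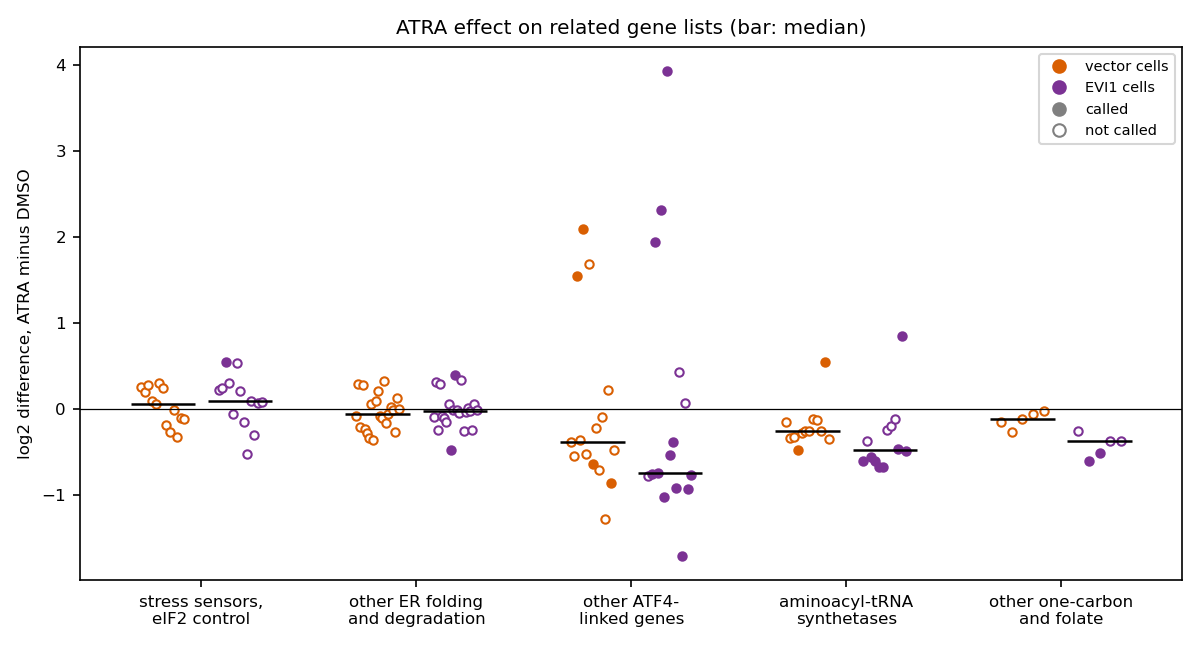
ATRA minus DMSO log2 differences (y axis) of single genes in 5 related lists (x axis), in vector cells (orange) and EVI1 cells (purple), filled where called without the block, with bars for list medians. The ATF4-linked list has the lowest medians (-0.38 and -0.75) together with the largest rise, GDF15 in EVI1 cells (3.93).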

How the data were processed

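The authors' deposited table holds log2 signals that come, per the submitters' processing notes, from RMA as run in Expression Console 1.3 of Affymetrix; its settings are not given in the sources used here. It was used as deposited for 54675 probe sets on 12 arrays (medians 5.29 to 5.35). The array annotation gave exactly 1 symbol to 41097 probe sets, and 41043 of their Entrez identifiers were found in RefSeq's GRCh38.p14 gene table. For each of 19775 genes the probe set highest on average over the 12 arrays was kept, and 14080 reached log2 5 on at least 3 arrays.

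Group means were fitted over these genes by the lmFit and eBayes functions of limma 3.58.1 (R 4.3.3), leaving 8 residual degrees of freedom, with Benjamini-Hochberg adjustment within each of 5 comparisons; a second fit added the replicate number as a block (6 residual degrees of freedom). The labels give the groups shared numbers, and the pairing was checked on the data: deviations from group means of same-numbered arrays correlated at 0.408 to 0.704 in all 18 pairs, and those of other pairs at -0.56 to 0.164. The number of arrays limits the precision.

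Members, lists and tests were chosen with earlier results of these data known. Members are named in full where called in at least 1 comparison in either fit, and genes of other lists where called, up to 4 per list and comparison by size of difference. Promoter windows are from RefSeq (GRCh38.p14). Alternatives were another filter, probe set choice, scaling, array subset and variance prior, and leaving out arrays. Protein sequences were not analysed here.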

Additional observations from a re-analysis of the deposited data

How the results depend on the processing

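With the replicate block, 12 listed genes fell with ATRA in vector cells (0 without), against 10.1% of all genes. In EVI1 cells 5 rose and 14 fell (1 and 6 without), against 16.3% and 19.4%. In EVI1 against vector cells under DMSO, 1 was higher and 3 were lower (0 without), against 4.20% and 2.99%. Under ATRA 4 were higher and 9 lower (0 without), against 13.0% and 12.3%. The blocked fit on the 8 arrays of numbers 1 and 2 was chosen after seeing the data. It gave 3 lower with ATRA in vector cells (5.33% of all genes). In EVI1 cells it gave 12 lower and 1 higher (12.5% and 11.3%), with SEL1L and XBP1 no longer called. In EVI1 against vector cells it gave 1 higher and 0 lower under DMSO (1.42% and 1.16%). Under ATRA it gave 1 higher and 4 lower (3.97% and 3.27%). The mean over all probe sets gave 1 lower in vector cells, 0 higher in EVI1 cells, and 1 lower with EVI1 under DMSO and 1 under ATRA. Centring each array on its median gave 1 lower in vector cells (2.20% of all genes). In EVI1 cells centring gave 1 higher and 8 lower (6.28% and 9.47%). Fitting only the 6 arrays compared, with 4 residual degrees of freedom, gave 3 lower in vector cells (1.80% of all genes). In EVI1 cells it gave 0 higher and 1 lower (2.83% and 2.39%). Leaving out both DMSO arrays of number 3 gave 0 higher and 5 lower in EVI1 cells (7.13% and 5.73% of all genes). Leaving out 1 array at a time gave 0 to 1 lower in vector cells (0.284% to 2.00% of all genes). In EVI1 cells it gave 0 to 4 higher (3.38% to 10.1%) and 1 to 10 lower (2.99% to 12.7%). For EVI1 against vector under ATRA it gave 0 to 3 higher (0.987% to 6.77%) and 0 to 3 lower (0.881% to 7.17%). The counts of listed genes not given for the fits named here were 0. No called difference changed sign in any alternative run. The cause of these changes was not tested. MTHFD2 in EVI1 cells was called in every alternative run. Genes near the signal limit, such as CHAC1 and WFS1, have compressed differences.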
